A study of Homo sapiens with 2 samples.

Results

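Domain I is the 5′-most folding unit of 28S, the long rRNA of the large ribosomal subunit. It was taken here as every position of 28S before position 436, numbered from 1 at the 5′ end as in the deposited table, by a fixed range that uses no measured value. Of the 5070 positions of 28S this left 4635 outside, so the domain is 8.58% of 28S and 6.27% of the 6940 positions listed for 18S and 28S together. The domain boundaries are approximate, and the table has no domain labels or tracks against which they could be checked. The data come from a CLIP-seq experiment in U2OS cells, a human osteosarcoma line, in a study of how the stress kinase ZAKα recognises stalled ribosomes. RNA was recovered from 1 pull-down labelled ZAK-alpha-RBR and from 1 mock pull-down, and the labels give neither a treatment nor how the construct and the mock were made. There was 1 library per group, so no difference has a replicate check and no p-value is given.

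In the eukaryotic ribosome the RNA that corresponds to the 5′ end of bacterial 23S rRNA is a separate molecule, 5.8S rRNA. The 5′ end of 28S pairs with the 3′ end of 5.8S, and 5.8S and domain I form a joint fold on the solvent side of the large subunit, near the exit of the peptide tunnel. The table lists 18S and 28S only, so 5.8S was not analysed here. ZAKα is the long isoform of MAP3K20, a kinase that binds ribosomes and starts the ribotoxic stress response.

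Coverage of domain I was close in both libraries as a whole, with short stretches that differed. Coverage is the number of reads that span a position, given here in parts per 1000000 (ppm) of the library's summed coverage. The largest difference was a gap in the ZAK-alpha-RBR profile at positions 42 to 50, where the mock was 7.51-fold higher on average. At the thinly covered 5′ end, positions 3 to 14 were 3.87-fold higher in the mock on average, but were not a called region. A smaller deficit lay at positions 359 to 373, and an excess with ZAK-alpha-RBR at 115 to 126. The sequences of these places are printed because both edges of the gap and the start of the deficit at 359 fall on a C followed by an A. Capitals mark the regions found by the rule described below, the rest is flanking sequence, and all are read 5′ to 3′ from the deposited table.
28S positions 1 to 60: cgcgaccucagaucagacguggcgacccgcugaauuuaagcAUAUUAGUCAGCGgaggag
28S positions 101 to 140: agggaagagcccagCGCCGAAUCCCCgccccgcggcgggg
28S positions 339 to 380: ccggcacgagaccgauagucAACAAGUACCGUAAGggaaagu

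Domain I held 6.003% of all ZAK-alpha-RBR coverage (95% exact binomial interval 5.65 to 6.37) and 6.52% of all mock coverage (6.37 to 6.68), close to its share of the positions. The mean was 138 ppm per position with ZAK-alpha-RBR and 150 ppm in the mock, which is a log2 ratio of -0.12 with a pseudocount of 1 ppm. The rest of 28S had a log2 ratio of -0.06 and 18S of 0.12. The intervals rest on the smallest number of reads that the coverage allows, 17111 and 98906, and the domain's ratio of 0.920 had an interval of 0.860 to 0.983. Intervals throughout cover counting error only, and since no molecular identifiers are described, some reads may stem from 1 amplified molecule. Median depth in the domain was 784 reads per position with ZAK-alpha-RBR and 10634 in the mock, so counting error weighs more on the ZAK-alpha-RBR side. No position of the domain was without reads.

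Few positions of domain I were higher with ZAK-alpha-RBR. With the pseudocount, 21 positions (4.83%) exceeded the mock by 2-fold or more, against 9.31% over the whole table, and 42 (9.66%) were at least 2-fold lower, against 11.9%. The share of lower positions was thus near that of the table, and scaling by the median of ratios in place of library totals changed the split from 21 and 42 to 16 and 59. At a limit of 4-fold there were 0 higher and 14 lower positions, the latter 3.22% of the domain against 2.55% of the table. All 14 lay at positions 5 to 9 and 42 to 50. Neighbouring positions share reads, so these counts are not counts of separate events.

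For regions, each profile was averaged over 15 positions and the ratio of the 2 averages, here the averaged ratio, was taken. A region was called where it lay at least 2-fold from its median over 28S for 10 or more positions in a row. Domain I held 1 higher region, at 115 to 126, and 2 lower regions, at 42 to 54 and 359 to 373. Higher regions covered 2.76% of the domain and 4.73% of the table, and lower regions 6.44% of the domain and 9.73% of the table. For the table's shares, 18S was judged against its own median log2 ratio of -0.02. The median of 28S was 0.15, which put its lower limit at -0.85, nearer to equal levels than its higher limit. Both shares were below those of the table, so the domain was no place of concentrated differences by this rule. A window of 31 positions or a 3-fold limit left 0 regions, and a pseudocount of 10 ppm removed the higher region.

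**Figure D1:**
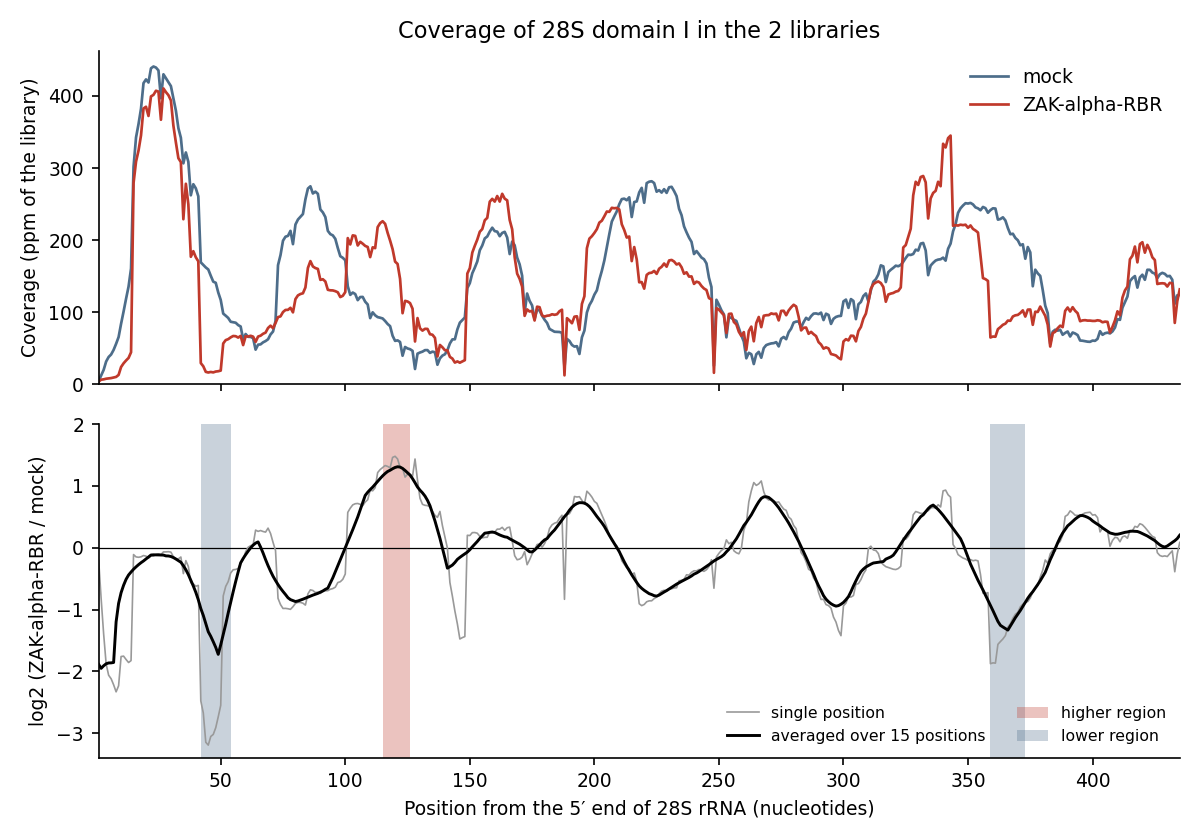
Coverage of the 28S positions before 436 in ppm of each library (upper panel; red, ZAK-alpha-RBR; blue, mock; 1 library each) and the log2 ratio with a pseudocount of 1 ppm (lower panel; grey, single positions; black, both profiles averaged over 15 positions; shaded, called regions). Both profiles peak near position 25, and the ratio is lowest at positions 42 to 50.

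At the extreme 5′ end, the strand that pairs with 5.8S, both libraries were thinly covered. Position 1 had 27 reads with ZAK-alpha-RBR (95% exact Poisson interval 17.8 to 39.3) and 370 in the mock (333 to 410), a ratio of 0.841 (0.547 to 1.24) after scaling to library totals. These were the lowest depths of the domain in both libraries, followed by position 2, with 45 and 981 reads, and position 3, with 48 and 1584. From there the mock built up faster than the ZAK-alpha-RBR library. At position 9 the depths were 90 and 5170 reads, and at position 14 they were 305 and 12663. Positions 3 to 14, which formed one of the longest runs of the domain below the 2-fold limit, averaged 19.4 ppm with ZAK-alpha-RBR and 75.1 ppm in the mock, 3.87-fold apart. The averaged ratio stayed below the region limit for 9 positions in a row, fewer than the 10 that the rule asks for. With averaging over 5 positions, positions 1 to 13 were a lower region.

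At position 15 both libraries stepped up together into the highest plateau of the domain. Depth went from 305 to 1909 reads with ZAK-alpha-RBR, a 6.26-fold step, and from 12663 to 23747 in the mock, a 1.88-fold step. This was the largest rise of the domain in each library, and it lies between C at position 14 and A at position 15. The plateau from 15 to 41 averaged 325 ppm with ZAK-alpha-RBR and 369 ppm in the mock, and held 14.6% and 15.3% of the domain's coverage. Its top was C at position 27 in the ZAK-alpha-RBR library, with 2806 reads against 33869, and C at position 23 in the mock, with 2745 against 34718. At position 27 the ratio was 0.954 (0.918 to 0.992), so the best covered place of the domain was nearly level between the libraries. Further along, at A 39, the mock still had 21863 reads (278 ppm) and ZAK-alpha-RBR 1263 (185 ppm).

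Both libraries stepped down between C at position 41 and A at position 42, but to different depths. By then ZAK-alpha-RBR coverage was already under 50% of its maximum, which it had last exceeded at position 37, while the mock stayed above 50% up to position 41. ZAK-alpha-RBR depth dropped 5.78-fold, from 1167 to 202 reads, and mock depth 1.54-fold, from 20548 to 13331. This was the largest fall of the domain with ZAK-alpha-RBR. From 42 to 50 the ZAK-alpha-RBR library stayed between 113 and 202 reads while the mock declined gradually from 13331 to 9224. Coverage there averaged 19.8 and 148 ppm, a 7.51-fold difference.

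Within this gap the lowest ratio of the domain was at U 45, with 113 reads (93.1 to 136) against 12554 (12335 to 12776), 9.64-fold lower with ZAK-alpha-RBR (8.01 to 11.7). At U 49, the low point of the averaged ratio, the depths were 125 and 10042 reads and the fold was 6.97 (5.85 to 8.39). The gap closed between C at position 50 and A at position 51. There ZAK-alpha-RBR depth went up 2.96-fold, from 131 to 388 reads, while mock depth went down, from 9224 to 7734. From 51 to 72 the libraries were again near each other, at 67.8 and 73.0 ppm. The 9 positions of the gap hold 22.2% G and C, against 60.7% of domain I.

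**Figure D2:**
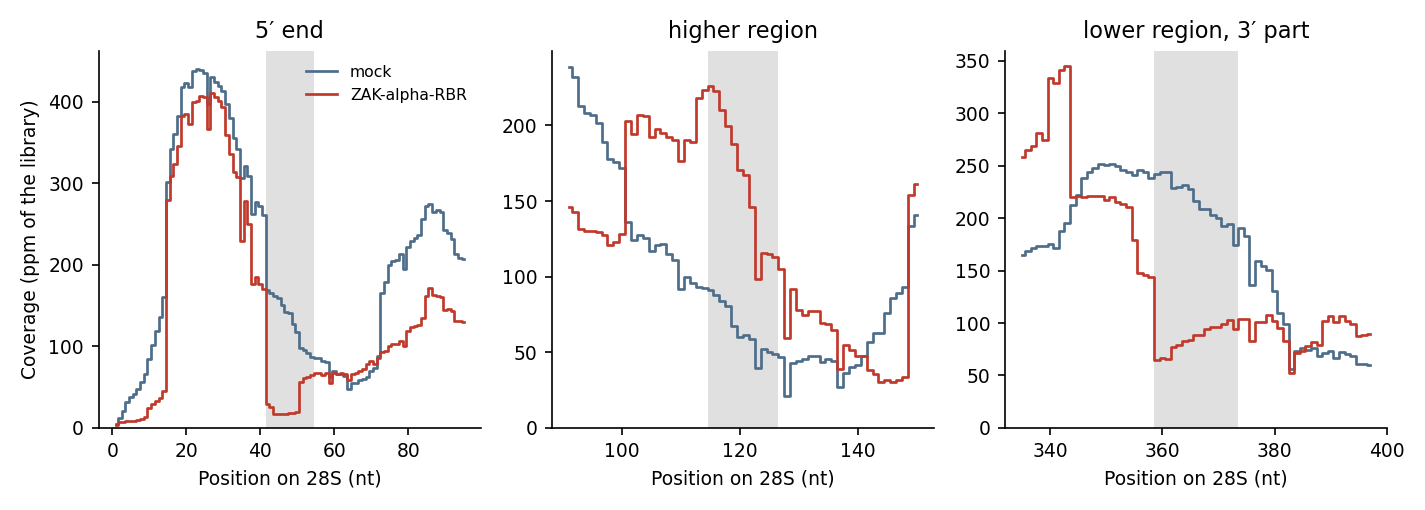
Coverage in ppm of each library by position on 28S at the 5′ end (left), around the higher region (middle) and around the lower region at 359 to 373 (right). Grey bands are the called regions, red is ZAK-alpha-RBR and blue is mock. The ZAK-alpha-RBR profile changes in single steps at the edges of the bands at 42 and 359, while the mock profile changes less there.

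The next peak, at position 86 in both libraries, was lower with ZAK-alpha-RBR. Between C at position 72 and A at position 73 mock depth went up 1.88-fold, from 6918 to 13022 reads, and ZAK-alpha-RBR depth 1.10-fold, from 582 to 638. The mock then reached 21635 reads at U 86, a local peak of 275 ppm, where ZAK-alpha-RBR had 1169 reads and 171 ppm. The ratio there was 0.622 (0.586 to 0.660). From 73 to 83 the means were 109 ppm with ZAK-alpha-RBR and 207 ppm in the mock, just within the 2-fold limit.

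The profiles crossed at position 101, again at a C followed by an A. ZAK-alpha-RBR depth went from 875 to 1387 reads between positions 100 and 101, and mock depth from 13559 to 10720. Over 101 to 112 the ZAK-alpha-RBR mean was 194 ppm and the mock mean 115 ppm. The ratio then widened as mock coverage declined further and ZAK-alpha-RBR depth went up at another C followed by an A. Between positions 112 and 113 ZAK-alpha-RBR depth went from 1292 to 1491 reads, and mock depth from 7547 to 7349. At positions 113 to 129, the longest run of the domain above the 2-fold limit, coverage averaged 157 and 63.4 ppm, so ZAK-alpha-RBR was 2.48-fold higher.

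The called region at 115 to 126 averaged 164 ppm with ZAK-alpha-RBR and 65.2 ppm in the mock. The highest ratio of the domain was at A 120, with 1164 reads (1098 to 1233) against 4756 (4622 to 4893), 2.82-fold higher with ZAK-alpha-RBR (2.64 to 3.01). At A 121, the peak of the averaged ratio, it was 2.73-fold (2.56 to 2.92). The region held 3.29% of the domain's coverage with ZAK-alpha-RBR and 1.20% in the mock. ZAK-alpha-RBR depth had a local peak of 1547 reads (226 ppm) at position 115, its 5′ edge, and was 771 reads at position 126. Mock depth went over the same positions from 7203 to 3847 reads. Of the region itself 75% of positions are G or C, and of the longer stretch that holds it, positions 113 to 148, 86.1%.

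At positions 144 to 148 the order turned again, with 31.6 ppm for ZAK-alpha-RBR and 81.3 ppm for the mock. Between C at position 148 and A at position 149 ZAK-alpha-RBR depth then went up 4.57-fold, from 230 to 1051 reads, and mock depth 1.44-fold, from 7311 to 10516. Both libraries next formed a shared peak. At A 163 there were 1807 reads with ZAK-alpha-RBR (264 ppm) and 16542 in the mock (210 ppm), 1.26-fold apart (1.20 to 1.32). On its 3′ side mock depth dropped from 11868 reads at position 171 to 7821 at position 172, one of the 3 largest mock losses, and ZAK-alpha-RBR depth from 927 to 650.

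In the middle of the domain the 2 libraries peaked at different places. ZAK-alpha-RBR coverage reached 1674 reads at G 207 (245 ppm), where the mock had 17782 (226 ppm). The mock went on to its peak at G 223, with 22189 reads (282 ppm), where ZAK-alpha-RBR had come down to 1059 (155 ppm). The ratio was 1.08 at position 207 (1.03 to 1.14) and 0.550 at position 223 (0.516 to 0.585). Downstream, at 264 to 267, the only other run above the 2-fold limit had means of 79.5 and 38.1 ppm. At 296 to 299 a short run below it had 38.3 and 93.6 ppm, and it ended between C at position 299 and A at position 300.

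The 3′ part of the domain held the second highest ZAK-alpha-RBR peak. Coverage with ZAK-alpha-RBR climbed from position 324 to C 343, which had 2359 reads (345 ppm) against 15374 in the mock (195 ppm), 1.77-fold higher (1.69 to 1.85). It had passed a local peak at A 328, with 1792 reads against 14239. Between C at position 343 and A at position 344 ZAK-alpha-RBR depth dropped to 1504 reads, while mock depth went up to 16722. The mock peaked a short way downstream, at C 351, with 19821 reads (252 ppm) against 1507 (220 ppm).

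The lower region at 359 to 373 began with a step that only the ZAK-alpha-RBR profile showed. Between C at position 358 and A at position 359 its depth went from 981 to 445 reads, a 2.20-fold drop, and mock depth from 18749 to 19035. The region had means of 85.3 ppm with ZAK-alpha-RBR and 216 ppm in the mock, 2.54-fold apart. Positions 359 to 370 formed a run below the 2-fold limit of the same length, 12, as that at the 5′ end, with 82.0 and 224 ppm. At A 366, the low point of the averaged ratio, there were 605 reads against 17076, 2.45-fold lower with ZAK-alpha-RBR (2.26 to 2.66). The profiles then approached each other from both sides: between positions 360 and 379 ZAK-alpha-RBR depth went from 454 to 738 reads and mock depth from 19232 to 11847. From 391 to 405 ZAK-alpha-RBR was the higher library, at 91.9 against 65.0 ppm. At the 3′ edge, the last position of the domain had 901 reads against 9774, and position 436, the first outside, had 982 against 9764.

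An even tiling describes the same values in segments of fixed length. Of 29 consecutive segments of 15 positions, 2 lay 2-fold or more above the mock with ZAK-alpha-RBR, 3 as far below it and 24 within 2-fold. Segments outside the domain were not counted, so these numbers have no share of the whole to stand beside. The highest log2 ratios were 1.07 at 106 to 120 and 1.05 at 121 to 135. Next were 0.62 at 331 to 345, 0.53 at 256 to 270 and 0.50 at 181 to 195. The lowest were -1.20 at 1 to 15, -1.20 at 361 to 375 and -1.05 at 46 to 60, followed by -0.83 both at 286 to 300 and at 76 to 90. The gap at 42 to 50 is split between 2 segments in this tiling, which dilutes it. Segment means ran from 34.9 to 381 ppm with ZAK-alpha-RBR and from 46.3 to 412 ppm in the mock, and the segment at 16 to 30 was the highest in both. Scaling by the median of ratios left 0 segments at 2-fold higher, with 0.97 at 106 to 120 and 0.95 at 121 to 135. Scaling by the totals of 28S left 2 segments at 2-fold lower, with -0.99 at 46 to 60.

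**Figure D3:**
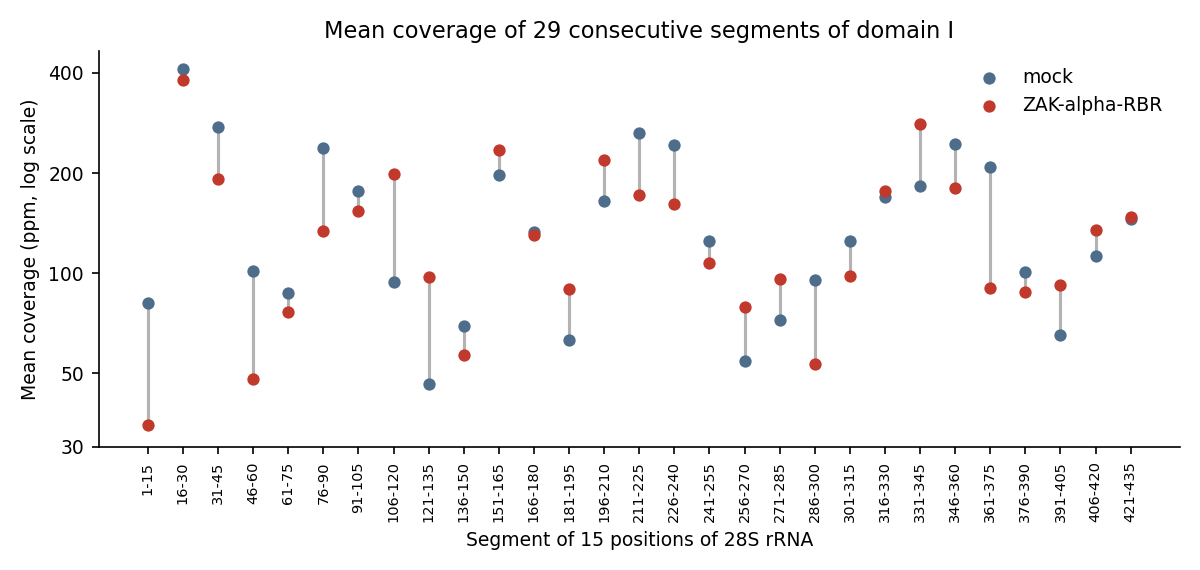
Mean coverage (ppm, log scale) of the 29 consecutive segments of 15 positions, with a grey line joining the ZAK-alpha-RBR value (red) and the mock value (blue), 1 library each. The longest lines are at 1-15, 361-375, 106-120, 46-60 and 121-135.

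Within domain I, most of the abrupt changes in ratio lay at a single kind of base step. The counts of steps given here and in the next paragraph were not made outside the domain. They have no share of the whole to stand beside and do not show a trait of this domain. Of the 434 steps from a position of the domain to the next, 18 go from C to A. ZAK-alpha-RBR depth changed by at least 1.5-fold at 10 of these 18, and mock depth at 3. At the 416 other steps the counts were 12 and 14, of which 1 and 3 touched no run of equal bases. C-A steps that touch such runs were kept among the 18. The median size of the change at C-A steps was 1.56-fold with ZAK-alpha-RBR and 1.20-fold in the mock, against 1.04-fold in both libraries at the other steps.

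The log2 ratio moved by 0.5 or more between neighbours at 14 steps, of which 8 were C-A steps. These 8 are the steps after positions 14, 41, 50, 72, 100, 148, 343 and 358, named above. The other 6 were the steps after positions 1 and 2, where depth was lowest, the one after position 141, and 3 at runs of equal bases. The 2 libraries also moved in opposite directions at the C-A steps after positions 50, 100, 112, 217, 343, 358 and 361, where one gained depth and the other lost it. This was 7 of the 18 C-A steps (38.9%), against 87 of the 416 other steps (20.9%). Of the 123 other steps that touch no run of equal bases it was 36 (29.3%). C-A steps that touch a run were not taken out of the 18, so this last share is of an unlike set. The difference was not tested.

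Gains and losses of depth were summed over the steps of the domain. They can come from the starts and ends of reads, but single-position dips at runs of equal bases, such as those at positions 188 and 248, also add to both. How strand was handled is not given in the sources used here. C-A steps made up 4.15% of the steps of the domain. They held 26.5% of all gains and 16.3% of all losses of ZAK-alpha-RBR depth, against 17.4% and 9.24% in the mock. In the rest of 28S the same shares were 17.4% and 17.9% with ZAK-alpha-RBR and 10.9% and 11.1% in the mock. With the dips in runs of equal bases filled, the shares of the domain were 40.2% and 24.1% with ZAK-alpha-RBR and 26.2% and 12.3% in the mock. Other steps also held more than their share of losses in the values as deposited. U-A steps, 3.69% of the steps of the domain, held 11.6% of losses with ZAK-alpha-RBR and 9.13% in the mock. Their shares of gains were 3.67% and 0.540%. C-G steps (9.68% of the steps) held 14.6% of mock losses and G-C steps (8.29%) 15.2%, both more than C-A steps. The part that C-A steps have in the differences between the libraries was not tested.

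**Figure D4:**
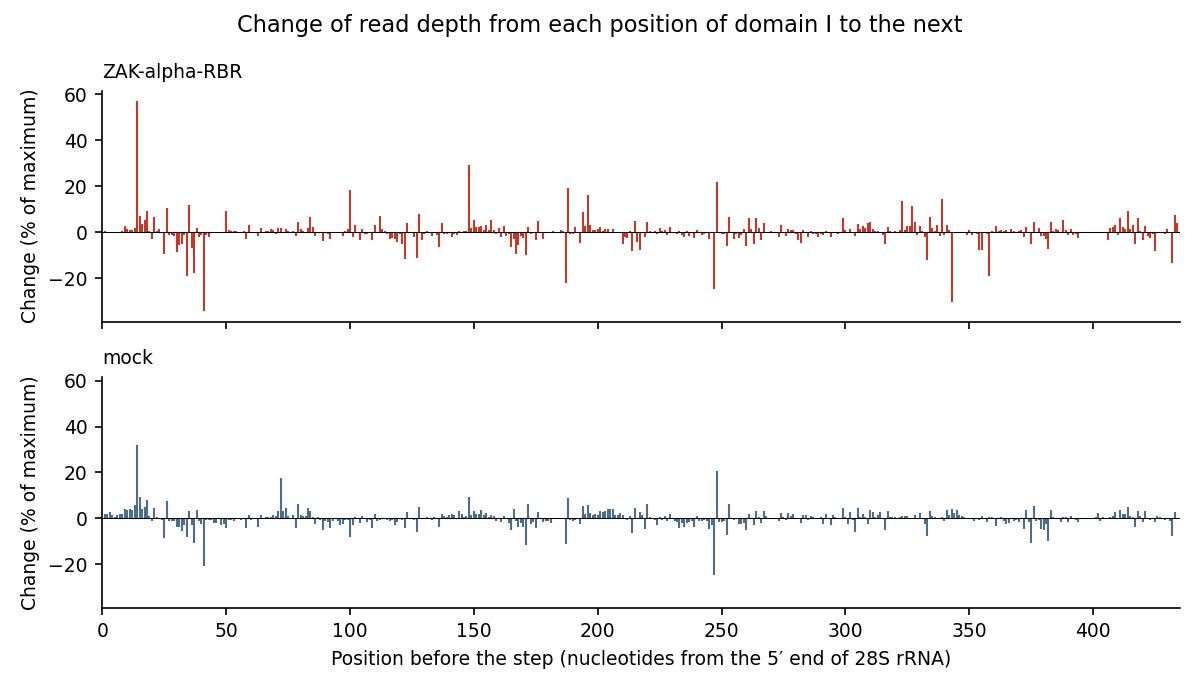
Change of read depth from each position of domain I to the next, as a percent of the highest depth of the domain in the same library (upper panel, ZAK-alpha-RBR; lower panel, mock). Gains point up and losses down. The largest gain of both libraries is after position 14, and the ZAK-alpha-RBR library has larger steps than the mock after positions 41, 148 and 343.

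Between successive C-A steps the domain falls into 19 stretches. In 4 of them the mean was at least 2-fold lower with ZAK-alpha-RBR, at 1 to 9, 10 to 14, 42 to 50 and 359 to 361, and in 0 it was at least 2-fold higher. These 4 were short, with 9, 5, 9 and 3 positions. No stretches were counted outside the domain, so these counts have no share of the whole to stand beside. The cuts are the C-A steps whose changes of depth are described above, so the counts partly restate those changes. The stretch that holds the higher region, at 113 to 148, averaged 101 and 58.8 ppm, a log2 ratio of 0.78, and the stretch at 101 to 112 had 0.75. The median log2 ratio of the 19 stretches was -0.27.

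Base identity and predicted pairing separated the libraries little. The log2 ratio of the means was -0.16 at A, -0.06 at C, -0.10 at G and -0.20 at U. In a structure predicted by RNAfold from the domain alone, without 5.8S and without proteins, 272 positions were paired. They averaged 134 ppm with ZAK-alpha-RBR and 144 ppm in the mock, and the 163 unpaired positions 144 and 159 ppm. Of the called regions, 42 to 54 had 10 of 13 positions paired, 115 to 126 had 10 of 12, and 359 to 373 had 6 of 15. Across the 29 segments the GC content and the log2 ratio had r = 0.23 (Spearman 0.19), a weak relation among points that come from the same 2 libraries. None of the 416 stretches of 20 bases in the domain occurred elsewhere in the 2 listed rRNAs.

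Against the rest of 28S, domain I lay in the middle of the range in mean level and in the ratio of means. The median log2 ratio of single positions differed in sign, at -0.09 in domain I and 0.17 in the rest of 28S. Cut into consecutive blocks of the domain's length, 28S gives 11 blocks, of which domain I is the first. It ranked 6th in mean ZAK-alpha-RBR coverage, 5th in mock coverage, 6th in log2 ratio and 8th in the correlation between the libraries. By the number of positions at least 2-fold higher the domain ranked 9th, and by the number at least 2-fold lower 6th. In 6 of the 11 blocks, domain I included, lower positions outnumbered higher ones. The next block, 436 to 870, had 123 positions at least 2-fold higher and 6 lower, and a log2 ratio of 0.71. Its GC content was 83.2%, against 60.7% in domain I. Between the libraries, log2 coverage had a Pearson r of 0.67 (Spearman 0.68) over the positions of domain I and of 0.82 (0.76) over the other 4635 positions of 28S. These describe positions that share reads and are given without a test.

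**Figure D5:**
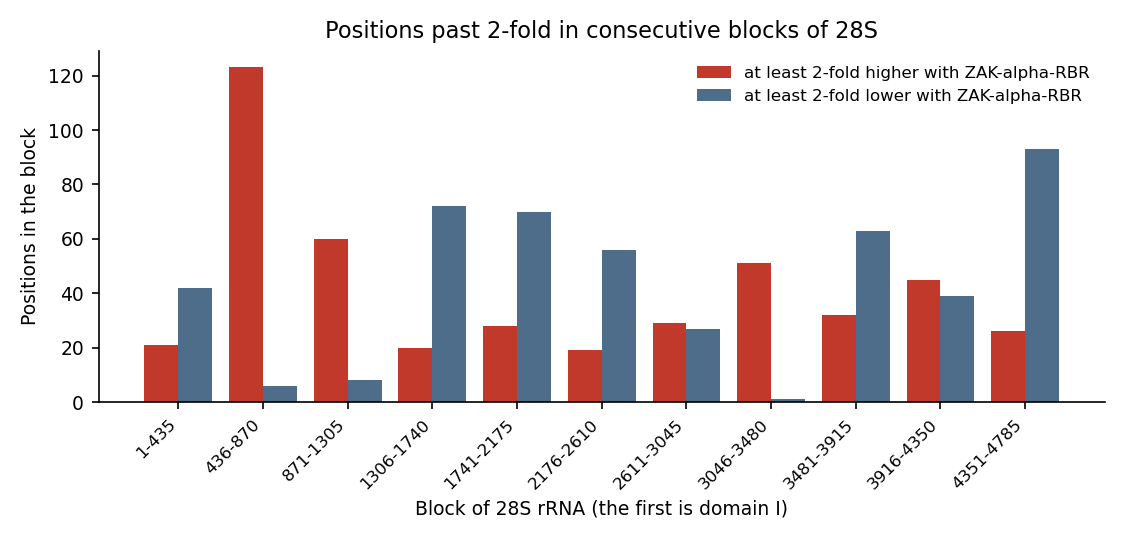
Number of positions past the 2-fold limit, higher (red) or lower (blue) with ZAK-alpha-RBR, in 11 consecutive blocks of 28S of the domain's length, log2 ratio with a pseudocount of 1 ppm. Domain I, the first block, has 21 higher and 42 lower positions, and the block after it 123 and 6.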

How the data were processed

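RNA from 1 ZAK-alpha-RBR and 1 mock pull-down was, per the labels' protocols, joined to adaptors by a modified tRNA ligase and sequenced on the Ion Proton. The submitters' processing notes name cutadapt 2.0 and Bowtie2 2.3.4.1. No source used here gives the reference, strand handling, multiple mapping or duplicate removal. The deposited values are a coverage signal per position, normalized by the authors per the file headers. Both columns have the same total. All mock values are whole, and all ZAK-alpha-RBR values are whole multiples of 11.5 (within 0.001 of a read), which gave the unscaled depth. The summed coverage was 6835941 with ZAK-alpha-RBR and 78749474 in the mock.

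Values were divided by library totals. Ratios at limits, segment ratios and log2 ratios carry a pseudocount of 1 ppm, and other folds carry none. Intervals are exact at 95% (Poisson for depths, Clopper-Pearson for shares and ratios). No test was made with 1 library per group. Named are all called regions, the 5 highest positions per library at least 15 apart, the 3 of lowest depth, the 5 highest and 5 lowest segments, the longest runs, and the 3 largest gains and losses of depth per library, and further steps and positions were chosen after their values were seen. The range, the rules and the C-A class were chosen with earlier results of these data known. The region rule was tested on simulated data with planted stretches longer than the regions called here and with positions drawn independently. That test does not show how the rule does on shorter regions or where neighbouring positions share reads. Structures were predicted with RNAfold 2.7.2 at 37 °C. Python 3.11.15, scipy 1.17.1 and pandas 2.3.3 were used. Alternatives were scalings, pseudocounts, a depth filter, other edges, region settings, filled dips and a structure of whole 28S.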

Additional observations from a re-analysis of the deposited data

How the results depend on the processing

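Leaving out a replicate was not possible. No paired analysis was possible because each group has a single library. The log2 ratio of domain I was -0.12, and -0.22 with scaling by the median of ratios. It stayed between -0.14 and -0.05 with 28S totals, other pseudocounts, the depth filter and other edges. The 10 named segments kept their direction under every scaling, pseudocount and filter tried. They were picked for the highest and lowest ratios, so this was largely set by the choice and is no check of them. Scaling by the median of ratios left 0 segments at 2-fold higher and a pseudocount of 10 ppm left 1. Keeping only positions above the lower quartile of coverage left 26 lower positions, since the positions removed include thinly covered ones. The window of 31 positions, the 3-fold limit and runs of at least 20 positions gave 0 higher and 0 lower regions, and a pseudocount of 10 ppm gave 0 higher and 2 lower. A 1.5-fold limit gave 1 higher and 6 lower, and a window of 5 positions 1 and 3. As a share of 28S alone, domain I held 9.35% of ZAK-alpha-RBR and 9.72% of mock coverage. Filling dips gave C-A steps 40.2% of gains and 24.1% of losses with ZAK-alpha-RBR, and 26.2% and 12.3% in the mock. The ratio of paired to unpaired means was 0.929 with ZAK-alpha-RBR and 0.906 in the mock, and 0.994 and 0.972 with the structure of whole 28S. Where no construction shows it, the cause was not tested. The low ZAK-alpha-RBR depth limits the values at positions 1 to 14 and 42 to 50.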

Other observations

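Single-position dips were looked for only within runs of equal bases, so their lying in such runs was set by the search. At 7 of these positions in domain I the depth of at least 1 library would be over 1.5-fold higher if filled to the level of its neighbours. All 7 were the first base of their run, and the runs had 3 to 6 equal bases. The deepest were G 188, the first of a run of 6, and C 248, the first of a run of 5. Depth at position 188 was 86 reads with ZAK-alpha-RBR and 1829 in the mock, between 708 and 628 reads and between 5639 and 4967 reads on either side. At position 248 it was 110 and 2041 reads, between 806 and 723 and between 10634 and 9241. The fall into position 248 and the rise out of it were among the 3 largest of both libraries. The dip at 188 was 7.51-fold with ZAK-alpha-RBR and 2.72-fold in the mock, and that at 248 was 6.57-fold and 4.53-fold. The other 5 dips, at positions 128, 137, 261, 383 and 433, were at most 2.18-fold in either library. Both libraries were made on the same platform, and the source of the dips was not tested.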
